A study of Bos taurus with 12 samples.

Results

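Genes for 10 transporters of taurine and amino acids were looked up by symbol in a table of 24616 bovine genes, and 9 were found, each on 1 row. They were the taurine transporter SLC6A6, the sodium-coupled neutral amino acid transporters SLC38A1 and SLC38A2, the exchanger subunits SLC3A2 and SLC7A8, the neutral amino acid exchanger SLC1A5, the cationic amino acid transporter SLC7A1, the glutamate transporter SLC1A3 and the uniporter SLC43A2. SLC7A5 was not matched and is not analysed here. The list was chosen by gene name with levels and differences between low and high pressure from earlier results of these data in view, so the differences between the groups given here describe these genes and are not independent evidence for them.

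The samples were right ventricles, the heart chamber that works against the pressure of the lung circulation, from 12 Angus steers labelled wild type. All were born and raised at 2170 m (7120 ft), castrated, and slaughtered at 13 to 15 months, so the chronic low oxygen of altitude is common to every group. Pulmonary artery pressure (PAP), taken by repeated right heart catheterization, together with clinical signs, placed 6 animals in a low-PAP group, 3 in a group with pulmonary hypertension that was clinically healthy (PH-healthy) and 3 in a group with pulmonary hypertension and right heart failure (PH-failure). There was no lowland group, and each library came from a different animal, so that p-values measure the spread between animals.

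Amino acids do not cross the plasma membrane unaided. SLC6A6 brings taurine into the cell together with sodium and chloride; taurine is a sulfur-containing osmolyte that heart muscle holds at high concentration and takes up largely from the blood. System A transporters such as SLC38A1 and SLC38A2 use the sodium gradient to concentrate glutamine and other small neutral amino acids. Exchangers built on the heavy chain SLC3A2 can then trade glutamine for leucine and other large neutral amino acids, which are sensed by the growth-controlling kinase complex mTORC1.

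Levels are given in RPKM, read numbers scaled by the exon length of the gene and by the depth of the library, so that genes can be compared with each other. Differences are in log2(RPKM + 1), ± SE, from a limma fit of 11374 genes that reached 1 RPKM in at least 3 of the 12 libraries, with a Benjamini-Hochberg adjusted p over all of them. A gene is said to have risen or fallen where that p was under 0.05. This scale understates changes of genes near 1 RPKM or below. Libraries held 14739237 to 31090198 mapped reads. Of the 9 transporters, 8 were tested. SLC7A8 stayed below 1 RPKM in every library, and SLC6A6 and SLC43A2 passed the minimum through PH libraries only.

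Marker levels matched heart muscle. The summed RPKM of 9 cardiomyocyte genes was 37991 to 65792, against 0.222 to 0.664 for 3 B-cell genes. These sets do not tell the heart chambers apart, and atrial markers are given below. Mitochondrial transcripts took 22.6 to 29.9% of the exon reads at low PAP and 17.9 to 20.8% in PH. A few libraries stood apart. PH-failure replicate 3 had the lowest cardiomyocyte sum (37991), the highest macrophage sum (195 over 9 genes, against 49.8 to 119 in the other 11 libraries) and the highest red cell sum (68.9, against at most 7.07). It was also the highest of the 12 libraries for 6 of the 9 transporters. Low-PAP replicate 6 was the highest low-PAP library for 8 of them. On the first principal component of all tested genes, low-PAP replicates 2 and 6 lay at -11.9 and -5.17. These positions fall between the other low-PAP libraries (-41.7 to -33.5) and the PH libraries (10.6 to 41.9).

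In the low-PAP ventricle SLC38A2 was the leading transporter of the 9, at 53.9 ± 12.3 RPKM (SD, n = 6), and provided 68.8 to 75.7% of their summed RPKM. SLC3A2 followed at 9.02 ± 2.17, and neither overlapped with its neighbour in the order. SLC38A1, SLC7A1, SLC1A5 and SLC1A3 came next, at mean levels of 3.01, 2.84, 2.40 and 2.02 RPKM, with overlapping ranges. SLC6A6 (0.672), SLC43A2 (0.420) and SLC7A8 (0.334) were at the bottom, again with ranges that overlapped between neighbours. In the 6 PH libraries SLC38A2 stayed first, at 46.7 to 57.9% of the sum. SLC38A1 moved to second place, and SLC6A6 went from rank 7 or 8 in each low-PAP library to rank 3 or 4 in each PH library. In PH, the ranges overlapped between all neighbours in the order except SLC38A2 with SLC38A1 and SLC43A2 with SLC7A8.

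**Figure D1:**
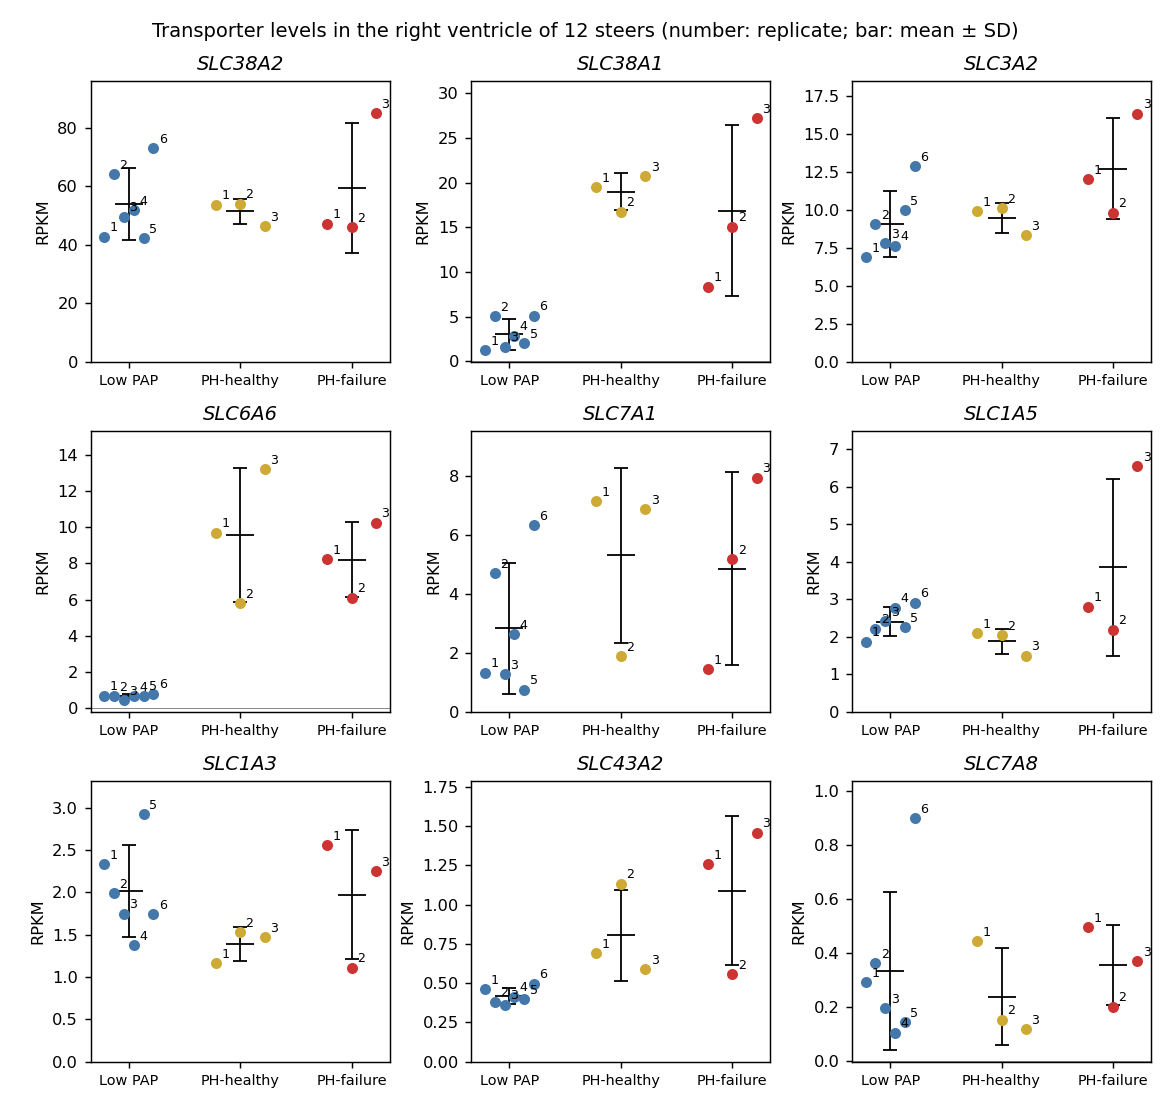
Level in RPKM of the 9 transporters in each of the 12 libraries, in 9 panels with their own linear axis. Points are animals numbered by replicate, and bars are mean ± SD of the low-PAP (n = 6), PH-healthy (n = 3) and PH-failure (n = 3) groups; SLC6A6 lies below 1 RPKM in all low-PAP libraries and above 5.8 in all PH libraries.

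SLC6A6, the taurine transporter, was the gene of the 9 with the largest separation between low and high pressure. It lies on chromosome 22 from 58448092 to 58494802 (ENSBTAG00000011088, positions as the table gives them). The low-PAP libraries had 0.465, 0.688 and 0.818 RPKM as lowest, median and highest value, resting on 24 to 48 reads each. PH-healthy replicates 1 to 3 had 9.69, 5.82 and 13.2 RPKM, and PH-failure replicates 1 to 3 had 8.25, 6.11 and 10.2, on 243 to 748 reads. Every PH library was thus well above every low-PAP library, by 8.66-fold to 19.7-fold over the low-PAP mean. The group means of 0.672 ± 0.116, 9.57 ± 3.70 and 8.20 ± 2.07 RPKM (SD; n = 6, 3 and 3) give ratios of 14.3 for PH-healthy and 12.2 for PH-failure over low PAP.

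SLC6A6 rose in both comparisons. Its log2 difference was 2.60 ± 0.20 in PH-healthy (adjusted p = 2.71e-05) and 2.44 ± 0.20 in PH-failure (adjusted p = 6.31e-05), which ranked 3 and 2 of the 11374 genes by p. Across the alternatives these adjusted p ranged from 6.81e-06 to 0.00148 and from 2.00e-05 to 0.00233. SLC6A6 was below 1 RPKM in every low-PAP library and was tested because of its PH levels, so its p and rank only describe it. Both comparisons use the same 6 low-PAP libraries, as do all others with low PAP here. Of the tested genes, 34.7% were called in PH-healthy and 33.8% in PH-failure, so a call alone is common in these data. The difference also held within each of the series 55 and 56 into which the library names fall. It was 2.57 and 2.67 (1 PH library) in PH-healthy, and 2.76 (1 PH library) and 2.27 in PH-failure. Without PH-failure replicate 3 it was 2.28 (adjusted p = 0.000398). In the authors' deposited table, whose low-PAP and high-PAP means are not those of the libraries used here, the fold for SLC6A6 is 11.3 with a false discovery rate of 5.89e-07.

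Markers of other cell types also moved with PH, in both directions, and in bulk tissue a change in the number of cells of a type and a change of RNA per cell cannot be told apart. For comparison, over all genes 26.6% rose and 8.15% fell in PH-healthy, and 28% rose and 5.79% fell in PH-failure. The summed RPKM of 3 atrial cardiomyocyte markers was 3085 to 6775 at low PAP, 539 to 876 in PH-healthy and 425 to 1837 in PH-failure, without overlap between low PAP and PH. Of the 3, MYL7, the atrial myosin light chain, fell by 2.85 ± 0.36 in PH-healthy (adjusted p = 0.000407 in limma) and by 2.57 ± 0.36 in PH-failure (adjusted p = 0.00115 in limma). The other 2 were not called, and their differences were above 0: the median of the 3 was 0.30 in PH-healthy and 0.48 in PH-failure. The fall of the sum was therefore not shared by all 3 markers.

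Of 7 fibroblast markers 5 rose in each PH group, and their summed RPKM was 454 to 680 at low PAP, 543 to 1083 in PH-healthy and 821 to 1340 in PH-failure. PH-healthy replicate 3 was the only PH library with a fibroblast sum (543) within the low-PAP range. The other PH libraries had 821 to 1340. Of 6 endothelial markers 4 rose in each PH group, with sums of 70.2 to 139 at low PAP, 125 to 146 in PH-healthy and 144 to 184 in PH-failure. Of 9 macrophage markers 7 rose in PH-failure and 3 in PH-healthy; without PH-failure replicate 3, 1 macrophage and 1 endothelial marker rose in PH-failure, and 5 fibroblast markers still did. Of 7 smooth muscle and pericyte markers 5 rose in PH-failure and 2 in PH-healthy, and 3 rose in PH-failure without replicate 3. CSPG4, 1 of the 5, reached 1 RPKM in fewer than 3 low-PAP libraries, so it was tested because of its PH levels. Of 9 cardiomyocyte markers TTN rose in both PH groups, MYH7 rose in PH-healthy, TNNI3 fell in both, and ACTC1 and PLN fell in PH-failure; none was called in PH-failure without replicate 3, and none was called lower after quantile normalization. TRAC, 1 of 5 markers of T and NK cells, fell in both PH groups, though not with scaling that left out mitochondrial genes, nor in PH-failure without replicate 3.

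Several of these counts depend on the scaling. After median-ratio scaling, 2 fibroblast markers rose and DCN fell in PH-healthy, 4 fibroblast markers rose in PH-failure, and 2 endothelial markers rose in each PH group. Of the macrophage markers, 1 then rose in PH-healthy and 4 in PH-failure. Of the smooth muscle and pericyte markers, 1 rose in PH-healthy, and 3 rose and RGS5 fell in PH-failure. After quantile normalization no macrophage marker rose in PH-healthy and 2 did in PH-failure, while 5 fibroblast markers rose in each. MYL7 fell in both PH groups under both scalings. None of these markers is at 0 in all libraries, and their part in the transporter differences was not tested.

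SLC38A1 and SLC38A2, transporters of glutamine and other small neutral amino acids, lie next to each other on chromosome 5, from 34145240 to 34198996 and from 34028553 to 34042996. The table has no gene in the 102243 bases between them. SLC38A1 (ENSBTAG00000000859) had 1.28, 5.09, 1.66, 2.89, 2.02 and 5.14 RPKM in low-PAP replicates 1 to 6. It had 19.5, 16.7 and 20.7 RPKM in PH-healthy and 8.35, 15.1 and 27.2 in PH-failure. The groups did not overlap, but the low-PAP replicates 2 and 6 were the highest of their group and PH-failure replicate 1 the lowest of PH. Means were 3.01 ± 1.71, 19.0 ± 2.05 and 16.9 ± 9.58 RPKM (SD; n = 6, 3 and 3), 6.30-fold and 5.60-fold above low PAP.

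SLC38A1 rose by 2.42 ± 0.36 in PH-healthy (adjusted p = 0.000920) and by 2.12 ± 0.36 in PH-failure (adjusted p = 0.00249) on the log2 scale. Across the alternatives the adjusted p stayed between 0.000429 and 0.00948, and between 0.00101 and 0.0144. Within series 55 and 56 the differences were 2.42 and 2.44 (1 PH library) in PH-healthy, and 2.94 (1 PH library) and 1.70 in PH-failure. Without PH-failure replicate 3 the difference was 1.72 (adjusted p = 0.0142). The authors' deposited table gives SLC38A1 a fold of 4.90 with a false discovery rate of 2.47e-06, and gives the 7 transporters other than SLC6A6 and SLC38A1 a false discovery rate of 1.0.

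SLC38A2 (ENSBTAG00000011105), the neighbour, did not pass the test. Its low-PAP values were 42.2, 50.7 and 73.1 RPKM as lowest, median and highest, against 53.7, 54.1 and 46.3 in PH-healthy and 47.2, 46.1 and 84.9 in PH-failure. The ranges overlapped, and 4 of 6 PH libraries were below the low-PAP mean. The 95% interval of the log2 difference was -0.50 to 0.41 for PH-healthy and -0.35 to 0.56 for PH-failure. SLC38A1 therefore took a larger share of the pair's summed RPKM: 2.91 to 7.36% at low PAP, 23.6 to 30.9% in PH-healthy and 15.0 to 24.6% in PH-failure. This share is a ratio of 2 genes in the same library, so it does not move with a scaling factor of the library, and it did not overlap between low PAP and PH.

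**Figure D2:**
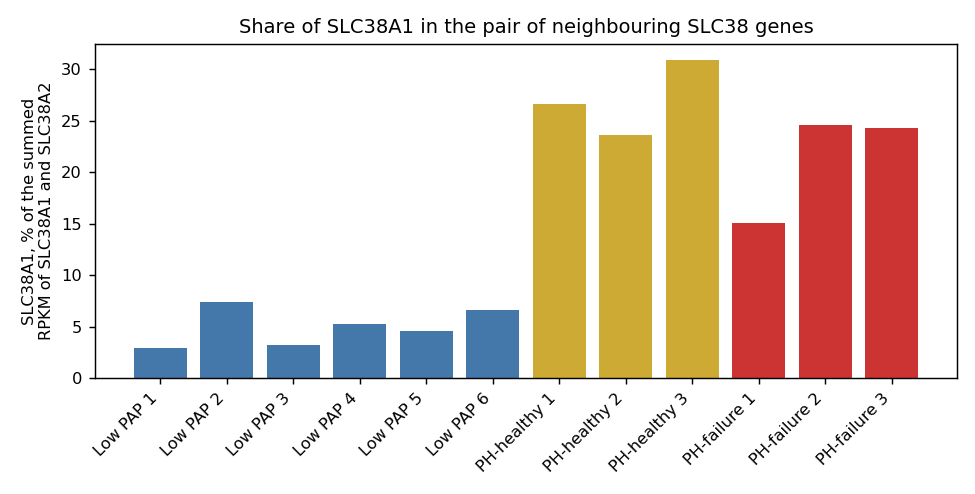
Share of SLC38A1 in the summed RPKM of SLC38A1 and SLC38A2, in percent, 1 bar per library from 0. The 6 low-PAP libraries end below 7.4% and the 6 PH libraries start at 15.0%, with PH-failure replicate 1 the lowest of them.

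SLC43A2, a uniporter of branched-chain amino acids and other large neutral ones, was low in all groups. The low-PAP libraries had 0.364, 0.407 and 0.496 RPKM as lowest, median and highest value, on 31 to 48 reads. PH-healthy replicates had 0.690, 1.13 and 0.588, and PH-failure replicates 1.25, 0.555 and 1.46, on 51 to 131 reads. All 6 PH libraries were above all low-PAP libraries, as for SLC6A6 and SLC38A1. Over all tested genes 13.8% separate in this way. Like SLC6A6, SLC43A2 was tested because of its PH levels. SLC43A2 rose in PH-failure by 0.53 ± 0.14 (adjusted p = 0.0171), while the difference in PH-healthy was 0.33 ± 0.14 (adjusted p = 0.0867, 95% interval 0.02 to 0.65). Leaving out PH-failure replicate 3 ended the call in PH-failure (0.40, adjusted p = 0.0893), as did quantile normalization (0.27, adjusted p = 0.149) and the adipocyte marker level as a term (0.44, adjusted p = 0.0501). Over the alternatives that adjusted p ranged from 0.00644 to 0.149. With the PH groups combined, SLC6A6, SLC38A1 and SLC43A2 rose by 2.52, 2.27 and 0.43 in a comparison that called 47.7% of all genes.

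The remaining transporters did not pass the test in any comparison. SLC3A2, the heavy chain that carries several exchangers to the membrane, had 6.86, 8.42 and 12.8 RPKM at low PAP as lowest, median and highest. It had 9.91, 10.1 and 8.32 RPKM in PH-healthy and 12, 9.79 and 16.3 in PH-failure, so the PH values overlapped with low-PAP replicate 6. In PH-failure the log2 difference was 0.45 ± 0.18 (adjusted p = 0.0725). Without PH-failure replicate 3 it was 0.27 (adjusted p = 0.319), and after median-ratio and quantile scaling 0.20 and 0.21. Without low-PAP replicate 6 it was 0.55 (adjusted p = 0.0182), and with the library series as a term 0.50 (adjusted p = 0.0431); the adjusted p over all alternatives ranged from 0.0182 to 0.325. In PH-healthy the difference was 0.08 ± 0.18 (95% interval -0.32 to 0.48).

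SLC7A1, the main carrier of arginine and lysine in many cells, was the most variable of the tested transporters within low PAP. Replicates 1 to 6 had 1.32, 4.70, 1.27, 2.64, 0.749 and 6.34 RPKM, an 8.47-fold range. Replicates 6, 2 and 4 were the highest, in that order, as they were for SLC38A1. PH-healthy had 7.16, 1.88 and 6.89 RPKM, and PH-failure 1.44, 5.19 and 7.95, so that 1 library in each PH group was below the low-PAP mean of 2.84. The log2 differences were 0.77 ± 0.51 (adjusted p = 0.255) and 0.62 ± 0.51 (adjusted p = 0.360). Their 95% intervals of -0.34 to 1.88 and -0.49 to 1.73 are too wide to tell no difference from one as large as that of SLC43A2 or larger.

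SLC1A5, an exchanger that imports glutamine for other neutral amino acids, had 1.86, 2.33 and 2.91 RPKM at low PAP as lowest, median and highest. PH-healthy had 2.09, 2.04 and 1.50 RPKM, and PH-failure 2.80, 2.18 and 6.55. SLC1A3, a carrier of glutamate and aspartate, had 1.38, 1.87 and 2.92 at low PAP, 1.16, 1.53 and 1.47 in PH-healthy, and 2.56, 1.11 and 2.25 in PH-failure. The 3 libraries with the most SLC1A3 were low-PAP replicate 5, PH-failure replicate 1 and low-PAP replicate 1. The summed RPKM of 4 adipocyte markers was 90.8 in low-PAP replicate 5, 89.9 in PH-failure replicate 1 and 108 in PH-failure replicate 3, against 25.2 to 42.5 in the other 9 libraries. Low-PAP replicate 1 had the lowest adipocyte sum of the 12, 25.2. With the adipocyte level as a term, the difference of SLC1A3 between PH-failure and PH-healthy was -0.15 in place of 0.28, and neither was called. SLC7A8, a light chain of SLC3A2, had 0.106 to 0.900 RPKM at low PAP and 0.119 to 0.496 in PH, on 11 to 94 reads, and was not tested.

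**Figure D3:**
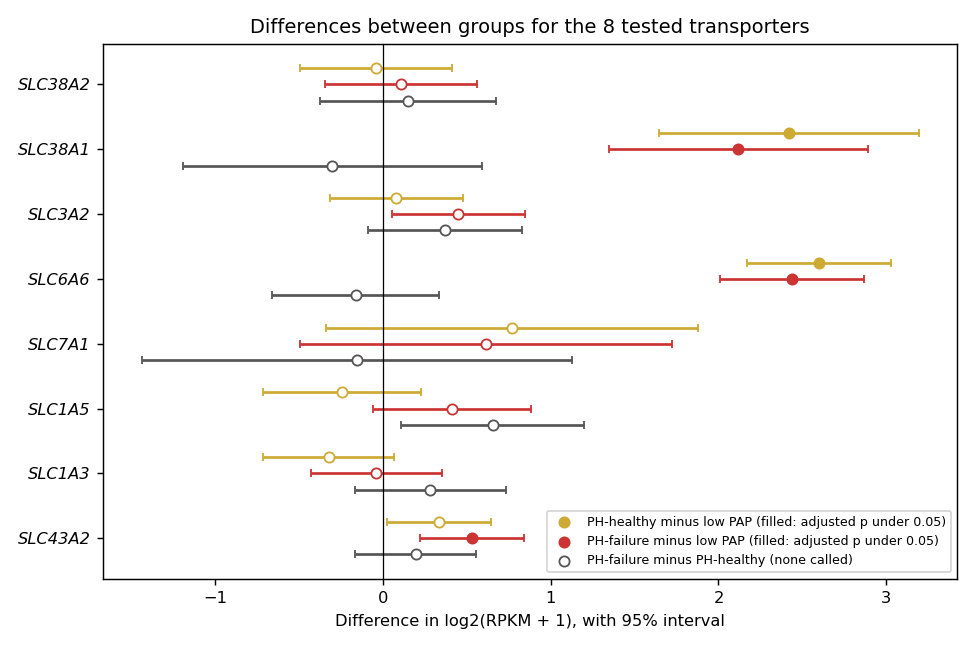
Difference in log2(RPKM + 1) between groups for the 8 tested transporters, with its 95% interval from limma; filled points have an adjusted p under 0.05 and open points do not. SLC6A6 and SLC38A1 lie above 2 in both comparisons with low PAP, and no difference between the 2 PH groups is filled.

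No transporter passed the test between PH-failure and PH-healthy in the limma fit, and over all genes 1 was called (0.00879%), with 308 at an unadjusted p under 0.05. The 95% interval of the log2 difference, failure minus healthy, was -0.66 to 0.33 for SLC6A6, -1.19 to 0.59 for SLC38A1 and -0.16 to 0.56 for SLC43A2. Each interval is wider than the difference of SLC43A2 between PH-failure and low PAP. SLC1A5 was the transporter whose PH groups separated: 2.18 RPKM or more in PH-failure and 2.09 or less in PH-healthy. Its difference was 0.65 ± 0.25 (unadjusted p = 0.0223, adjusted p = 1.00 in limma), and 0.28 without PH-failure replicate 3. In 3.61% of all tested genes PH-failure was likewise above PH-healthy without overlap. Within series 55 the difference of SLC1A5 was 1.45 (1 PH-failure library) and within series 56 it was 0.17 (1 PH-healthy library). PH-failure replicate 3 was the high library.

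The libraries can also be compared gene by gene. Centred on its own mean, SLC6A6 was split by pressure and varied little within low PAP, whereas SLC38A1 and SLC7A1 were higher in low-PAP replicates 2 and 6 than in the other 4. PH-healthy replicate 2 and PH-failure replicate 2 were the lowest of their groups for SLC6A6. PH-healthy replicate 2 was also the lowest of its group for SLC38A1 and SLC7A1, and in PH-failure replicate 1 was the lowest for these genes. By root mean square difference of the centred log2 profile over the 12 libraries, the genes most like SLC6A6 were NES (0.37), DDAH2 (0.39) and DACT1 (0.39), against 1.29 for the spread of SLC6A6 itself. NES, which encodes the intermediate filament nestin, had 41.1 ± 5.62 RPKM at low PAP (n = 6), 292 ± 18.0 in PH-healthy (n = 3) and 247 ± 44.8 in PH-failure (n = 3). For SLC38A1 the nearest was ATP13A3, a polyamine transporter of the P-type ATPase family, at 0.15 against a spread of 1.25; SLC38A1 was added to this search after its values were seen. ATP13A3 had 6.38 ± 3.07, 37.0 ± 3.00 and 28.6 ± 14.0 RPKM in the 3 groups (SD; n = 6, 3 and 3). Such likeness over 12 libraries is a description, since the libraries share their groups.

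**Figure D4:**
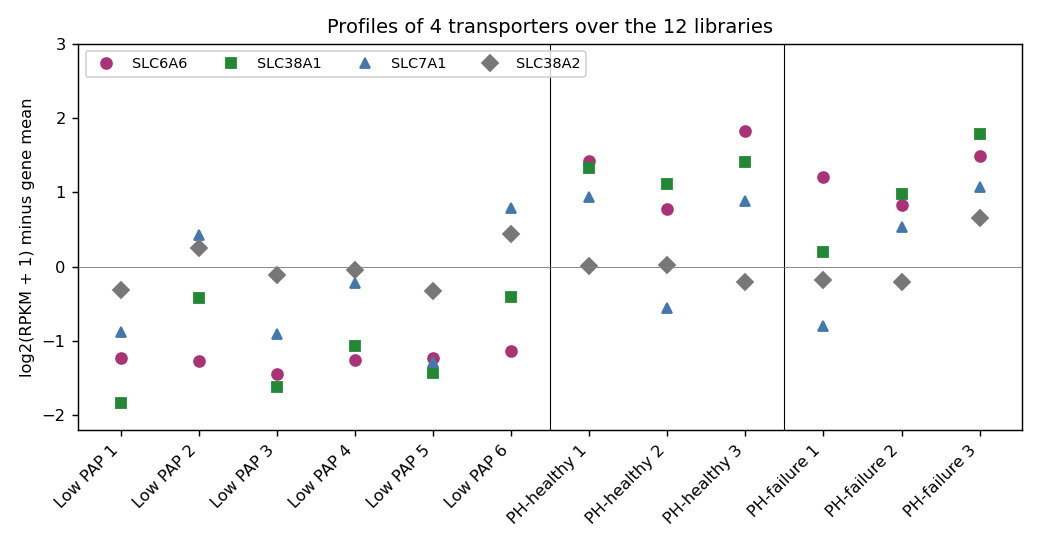
Profiles of SLC6A6, SLC38A1, SLC7A1 and SLC38A2 over the 12 libraries, as log2(RPKM + 1) minus the mean of the gene. SLC6A6 points are close together at low PAP and above 0 in all PH libraries, while SLC38A1 and SLC7A1 are raised in low-PAP replicates 2 and 6.

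Among other amino acid transporters of the plasma membrane and lysosome, 12 of the 39 in the table were tested. In PH-healthy 7 of the 12 rose and none fell, and in PH-failure 6 rose and none fell; over all genes 26.6% rose and 8.15% fell in PH-healthy, and 28% rose and 5.79% fell in PH-failure. The median difference of the 12 was 0.39 and 0.40, against 0.18 and 0.21 for all genes. SLC7A2, a cationic amino acid transporter related to SLC7A1, changed most: 0.211 to 0.587 RPKM at low PAP, 1.26 to 2.60 in PH-healthy and 1.09 to 3.35 in PH-failure. Its log2 difference was 1.17 ± 0.21 (adjusted p = 0.00240) and 1.15 ± 0.21 (adjusted p = 0.00331). SLC36A1, a proton-coupled lysosomal carrier of small amino acids, rose by 0.80 and 0.62, and SLC38A10, a relative of the SLC38 pair, by 0.67 and 0.74. SLC7A6, a partner of SLC3A2, rose by 0.47 and 0.39. SLC7A2, SLC36A1 and SLC36A4 reached 1 RPKM in fewer than 3 low-PAP libraries, so they were tested because of their PH levels, which favours calls in the higher direction. After quantile normalization 3 of the 12 rose and 2 fell in PH-healthy (SLC38A9 and SLC7A7), and 2 rose and 1 fell in PH-failure (SLC38A9). After median-ratio scaling 4 rose and 1 fell (SLC7A7) in PH-healthy, and 3 rose in PH-failure. Without PH-failure replicate 3, 4 rose in PH-failure.

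**Figure D5:**
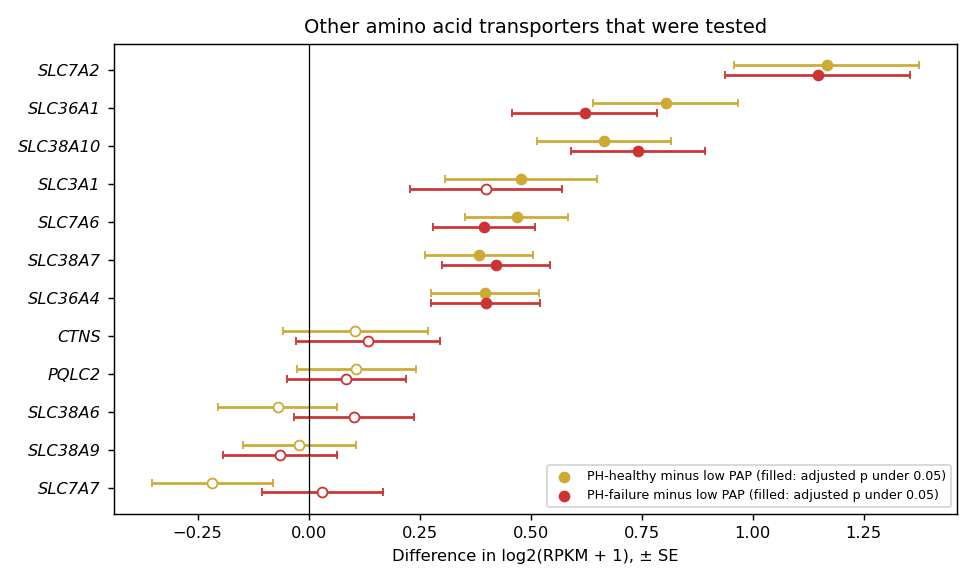
Difference in log2(RPKM + 1), ± SE, of the 12 other amino acid transporters that were tested, for each PH group minus low PAP; filled points have an adjusted p under 0.05. SLC7A2 is the farthest from 0, at 1.17 and 1.15, and no filled point is below 0.

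Genes of taurine synthesis, volume-regulated release and osmolyte handling moved less than SLC6A6. Of 10 tested, 5 rose in PH-healthy (SLC36A1, NFAT5, GADL1, ADO and LRRC8C) and 2 in PH-failure (SLC36A1 and LRRC8C), and none fell, against 26.6% and 28% of all genes that rose. SLC36A1 and LRRC8C reached 1 RPKM in fewer than 3 low-PAP libraries, so they were tested because of their PH levels; of the other 8 genes, 3 rose in PH-healthy and none in PH-failure. The median difference of all 10 was 0.34 and 0.46, against 0.18 and 0.21 for all genes. SLC36A1 is also on the list of transporters above. NFAT5, the transcription factor of the response to hypertonic stress and a known activator of SLC6A6, had 2.17 ± 0.66 RPKM at low PAP (n = 6), 4.37 ± 1.06 in PH-healthy (n = 3) and 3.75 ± 1.68 in PH-failure (n = 3). It rose in PH-healthy by 0.76 ± 0.23 (adjusted p = 0.0244), and the difference in PH-failure was 0.54 ± 0.23 (adjusted p = 0.0847). CSAD, an enzyme of taurine synthesis from cysteine, had 2.82 ± 0.44 RPKM at low PAP, 2.86 ± 0.12 in PH-healthy and 3.14 ± 1.18 in PH-failure (SD; n = 6, 3 and 3), and was not called. The osmolyte gene AKR1B1, which makes sorbitol, had 107, 96.7 and 106 RPKM. After quantile normalization SLC36A1 alone rose in PH-healthy, no gene of this list rose in PH-failure, and PTER fell in both. After median-ratio scaling SLC36A1 alone rose in each PH group and PTER fell in PH-failure, so the call of NFAT5 was lost in both settings.

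Of 29 tested genes by which mTORC1 senses amino acids, 8 rose and 4 fell in PH-healthy, and 5 rose and 3 fell in PH-failure. Over all genes 26.6% rose and 8.15% fell, and 28% rose and 5.79% fell, so the list's share of higher calls was near the background in PH-healthy and below it in PH-failure. Its share of lower calls was above the background in both groups, on only 4 and 3 genes. The median difference was 0.06 and 0.13, below that of all genes. SESN3, a sestrin that restrains mTORC1, rose by 1.08 ± 0.17 (adjusted p = 0.00131) and 1.01 ± 0.17 (adjusted p = 0.00243). MTOR, the kinase itself, had 3.29 ± 0.65 RPKM at low PAP (n = 6), 5.89 ± 0.71 in PH-healthy (n = 3) and 5.45 ± 0.89 in PH-failure (n = 3), and rose by 0.69 and 0.59. FNIP1, a partner of folliculin, rose by 0.90 and 0.82. LAMTOR5 and LAMTOR3, subunits of the scaffold that holds mTORC1 at the lysosome, fell by 0.62 and 0.42 in PH-healthy and by 0.53 and 0.38 in PH-failure. After median-ratio scaling 3 rose and 8 fell in PH-healthy, and 3 rose and 5 fell in PH-failure. After quantile normalization, SESN3 was the only gene of the list to rise in PH-failure, and without PH-failure replicate 3 SESN3 and NPRL3 rose.

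The ATF4 response to amino acid shortage showed few calls, with median differences of -0.05 in PH-healthy and 0.17 in PH-failure. Of 12 tested genes, PSPH, an enzyme of serine synthesis, rose and ATF4 itself fell in PH-healthy, against 26.6% and 8.15% of all genes. PSPH reached 1 RPKM in fewer than 3 low-PAP libraries, so it was tested because of its PH levels. In PH-failure MTHFD2, a mitochondrial folate enzyme, and the sensor kinase EIF2AK4 rose, but neither did without PH-failure replicate 3 or after quantile normalization. ATF4, the transcription factor, had 179 ± 16.4 RPKM at low PAP (n = 6), 128 ± 4.95 in PH-healthy (n = 3) and 172 ± 48.6 in PH-failure (n = 3). Its difference was -0.47 ± 0.15 (adjusted p = 0.0275) in PH-healthy and -0.08 ± 0.15 (adjusted p = 0.684) in PH-failure. ATF4 was no longer called after quantile normalization or with scaling that left out mitochondrial genes, nor was PSPH after quantile or median-ratio scaling. In PH-healthy DDIT3 and SHMT2 were called lower after quantile normalization, as were ATF4, DDIT3 and SHMT2 after median-ratio scaling, and no gene of the list was called higher in either. ASNS, a target gene of ATF4 that makes asparagine, had 2.27 ± 0.22, 3.01 ± 0.40 and 4.22 ± 2.59 RPKM and was not called.

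Inside the cell, enzymes of glutamine, glutamate and branched-chain amino acids changed in both directions. Of 16 tested, 4 rose and 1 fell in PH-healthy, and 1 rose and 2 fell in PH-failure, with median differences of 0.19 and 0.08. Over all genes 26.6% rose and 8.15% fell, and 28% rose and 5.79% fell. After median-ratio scaling 1 enzyme rose and 2 fell in PH-healthy, and 1 rose and 4 fell in PH-failure. GFPT1, which uses glutamine to start the hexosamine pathway, rose by 1.13 ± 0.24 (adjusted p = 0.00553) and 0.97 ± 0.24 (adjusted p = 0.0119). BCKDHB, a subunit of the enzyme that commits branched-chain keto acids to breakdown, fell by 0.70 in PH-healthy and by 1.03 in PH-failure. Its levels were 31.6 to 43.4 RPKM at low PAP, 21.7 to 24.0 in PH-healthy and 9.73 to 27.4 in PH-failure, without overlap between low PAP and PH. Without PH-failure replicate 3, BCKDHB still fell in PH-failure while GFPT1 was no longer called; BCKDHB was not called in PH-healthy with scaling that left out mitochondrial genes. GLUD1, which turns glutamate into a citric acid cycle intermediate, rose in PH-healthy by 0.46, though not after median-ratio scaling. Of 6 mitochondrial amino acid carriers, SLC25A15 rose in PH-healthy, and SLC25A12 and SLC25A29 fell in PH-failure. The median differences of the 6 were -0.05 and -0.10. SLC25A15 was not called after quantile or median-ratio scaling, and the calls of SLC25A12 and SLC25A29 in PH-failure were lost without replicate 3. In PH-healthy SLC25A12 and SLC25A29 had differences of -0.46 and -0.39 (adjusted p = 0.0836 and 0.0541 in limma). There, SLC25A29 was called lower after quantile and median-ratio scaling and with limma-voom, and SLC25A12 after median-ratio scaling.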

How the data were processed

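Total RNA of right ventricle was extracted with Trizol and sequenced as Illumina libraries, per the labels' protocols. The authors deposited 1 table of RPKM per gene and library, per the file headers, with their own group means, a fold between them, a p-value and a false discovery rate p-value. The sources used here name no aligner, counting method, strand setting or build. Starts were raised by 1 to count from 1.

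Groups came from sample titles. Whole reads and mapped reads per library were recovered from the steps of low RPKM values: all 11374 tested genes (of 17284 above 0) came out whole in every library within 0.05 reads, and their median was 370 reads in a library. Depth limits counting error only. Genes with 1 RPKM in at least 3 libraries were kept. The main fit was limma 3.58.1 (R 4.3.3, statmod 1.5.0) on log2(RPKM + 1), with trend and robust moderation, 3 groups in 1 model, and 4 comparisons, including both PH groups together with low PAP. It was tested on simulated data. Tables used Python 3.11.15, numpy 2.4.6 and pandas 2.3.3, and plots matplotlib 3.10.9.

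The members and all lists were chosen with earlier results of these data known. Named are all members, up to 4 called genes of smallest p per list and comparison, NFAT5, ATF4 and MTOR, and the 3 genes with the profile most like SLC6A6; CSAD, AKR1B1, ASNS and ATP13A3 were added after their values were seen, as were some called genes beyond the 4 and some cell type markers. Alternatives changed the pseudocount (0.1), the filter (none, or 5 RPKM), the scaling, the covariates (library series, adipocyte level, replicate block), the moderation, the samples, and the test (limma-voom on recovered reads, added after seeing the data).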

Additional observations from a re-analysis of the deposited data

Results flagged for a closer look

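SLC7A8, a light chain that pairs with SLC3A2, had 0.900 RPKM (94 reads) in low-PAP replicate 6, while the other 5 low-PAP libraries had 0.106 to 0.363 RPKM. The gap to the next library was 0.676 of the range of the group, above the critical value of Dixon's test for 6 values (0.625). Chance alone flags about 1 in 20 groups, and the low-PAP groups of 9 transporters were examined. The gene was below the minimum level for the fit, so no comparison rests on this library for SLC7A8.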

How the results depend on the processing

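SLC6A6 and SLC38A1 kept their calls against low PAP under all alternatives run. The limma-voom fit, which adds no RPKM to the values, gave larger differences for SLC6A6 (3.77 in PH-healthy, 3.57 in PH-failure) and for SLC43A2 in PH-failure (1.22). The count of called genes over the whole fit changed between the alternatives. At 5 RPKM 7257 genes were tested in place of 11374, so fewer could be called. Against 3848 for PH-failure with low PAP it was 2393 at 5 RPKM, 2551 after quantile normalization, 1379 with a replicate block and 1540 to 4669 with 1 library left out (lowest without PH-failure replicate 3, highest without low-PAP replicate 6). For PH-healthy (3951) it was 2557 at 5 RPKM, 1487 with the adipocyte term, 1834 with the block and 1890 to 4643 with 1 library left out (lowest without PH-healthy replicate 1). For both PH groups together (5421) it was 3416 at 5 RPKM and 3027 with the block. The 1 gene called between the PH groups became 0 with the series term, the adipocyte term, the block, only these groups, and limma-voom, and 0 to 4 with 1 library left out. The block leaves low-PAP replicates 4, 5 and 6 out of the comparisons with low PAP, so these counts rest on fewer animals. Apart from this and the 5 RPKM filter, the cause was not tested.

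The replicate numbers do not pair the animals: correlations of same-numbered deviations were -0.26 to 0.19. No PH library shares a number with low-PAP replicates 4, 5 and 6. Each of them is alone in its block and adds nothing to the differences from low PAP, which then rest on low-PAP replicates 1 to 3. Of the 9 transporters, the block ended the call of SLC43A2 in PH-failure (0.55, adjusted p = 0.110) and in PH as a whole (0.45, adjusted p = 0.102), and changed no other. Of the 12 other amino acid transporters tested, 5 rose in PH-healthy and 3 in PH-failure with the block. A fit without low-PAP replicates 2 and 6 together was also tried after seeing the data; it is not reported, because these libraries had been picked for their SLC38A1 and SLC7A1 levels.

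Scaling matters because the median of all genes was 0.21 above low PAP in PH-failure and 0.18 in PH-healthy. After quantile normalization it was -0.03 and -0.04, and calls split into 1133 higher and 1418 lower, and 1424 higher and 1622 lower, from 3190 and 658, and 3024 and 927. Median-ratio scaling gave 1435 and 1785, and 1721 and 1968. After quantile normalization SLC43A2 lost its call in PH as a whole (0.19, adjusted p = 0.176), and SLC1A3 was called lower in PH-healthy (-0.60, adjusted p = 0.0279) and in PH as a whole (-0.48, adjusted p = 0.0223). Fitted on its 2 groups alone, SLC43A2 was called in PH-healthy (adjusted p = 0.0336), and without low-PAP replicate 6 SLC3A2 was called in PH as a whole (0.36, adjusted p = 0.0357).

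Differences that changed sign were not called in either setting. Against low PAP these were, in PH-failure, SLC38A2 with median-ratio scaling (-0.16) and SLC1A3 with scaling without mitochondrial genes (0.012), and in PH-healthy SLC3A2 after quantile (-0.15) and median-ratio (-0.13) scaling and SLC38A2 without mitochondrial genes (0.081). In PH as a whole they were SLC38A2 (-0.0023 and -0.22) and SLC1A5 (-0.23 and -0.10) after quantile and median-ratio scaling. Between the PH groups the adipocyte term gave 0.51 for SLC7A1, -0.15 for SLC1A3 and -0.019 for SLC43A2. With 1 library left out, the ranges were -0.18 to 0.26 (SLC38A2) and -0.19 to 0.19 (SLC1A3) in PH-failure, -0.11 to 0.050 (SLC38A2) in PH-healthy, and -0.11 to 0.12 (SLC38A2) and -0.10 to 0.21 (SLC1A5) in PH as a whole. Between the PH groups they were -0.45 to 0.083 (SLC6A6), -0.13 to 0.30 (SLC38A2), -0.70 to 0.10 (SLC38A1) and -0.65 to 0.38 (SLC7A1).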
